A study of Homo sapiens with 61 samples.

Results

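The genes described here are 9 genes at the centre of mitochondrial apoptosis, measured in human neurons with and without vincristine: the guardians BCL2, BCL2L1, BCL2L2 and MCL1, the effectors BAX, BAK1 and BOK, and the apoptosome genes APAF1 and CASP9. They were taken by symbol, matched to the deposited gene identifiers through GENCODE 29, and all 9 were found among 58440 identifiers in both count tables and passed the filter on low counts in both. The neurons were made by NGN2 expression from WTC11, an induced pluripotent stem cell line, and were of the cortical kind according to the labels. In experiment 1, lines labelled WT, LZK KO, DLK KO or DLK LZK double KO, each carrying a doxycycline-driven NGN2 cassette, were given 5 nM vincristine, which blocks microtubule assembly, or DMSO vehicle (labelled untreated) for 16 hours at day 14, with 4 libraries in each of the 8 groups. In experiment 2, neurons carrying the CRISPRi machinery received, by lentivirus, a guide RNA against ATF2, a guide RNA against JUN or a scrambled control guide, written here as ATF2 gRNA, JUN gRNA and Control gRNA. They had the same 2 treatments, with 5 libraries per group except 4 for ATF2 gRNA with vincristine. DLK (MAP3K12) and LZK (MAP3K13) are kinases upstream of JNK signalling in injured neurons, and ATF2 and JUN are transcription factors that JNK phosphorylates. The design text gives 1 line per knockout. A difference between these lines, untreated or in the vincristine effect, therefore cannot be told apart from a difference between clones. Nothing in the labels says that libraries of a group came from separate cultures, so the p-values measure only the spread between these libraries.

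Guardian proteins bind the effectors and the BH3-only proteins and so hold the outer mitochondrial membrane closed. When BH3-only proteins occupy the guardians, BAX and BAK1 assemble into pores, cytochrome c leaves the mitochondria, and APAF1 forms with it the apoptosome, the platform on which caspase-9, the product of CASP9, becomes active. Neurons rely largely on BCL-XL (from BCL2L1) and MCL1 for survival, and mature neurons are known to restrain the apoptosome genes. These are transcript measurements: protein level, binding and pore formation were not measured, and in bulk RNA fewer cells of a type and less RNA per cell cannot be told apart.

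Libraries held 8.41 to 14.6 M (mega) counts in experiment 1 (median 10.3 M) and 38.9 to 88.4 M in experiment 2 (median 53.5 M). In the untreated groups the targeted genes were at 28.9% and 21.6% of WT for MAP3K12 (DLK KO and double KO), 32.2% and 29.9% for MAP3K13 (LZK KO and double KO), 0.409% of Control gRNA for ATF2 and 3.24% for JUN, with no overlap between libraries. JUN was also low in ATF2 gRNA, at a mean of 21.0 CPM untreated and 20.5 CPM with vincristine, against 88.5 and 237 CPM in Control gRNA. ATF2 had a mean of 71.0 CPM in untreated DLK KO against 141 CPM in WT, 165 CPM in LZK KO and 148 CPM in the double KO. All 7 neuron markers were at 1 CPM (count per M counts of the library) or more on average, while fibroblast markers summed to at most 3.28 CPM. Glia markers (1 of 5 at 1 CPM or more) summed to 13.1 to 44.0 CPM in experiment 1 and 5.88 to 23.4 CPM in experiment 2. Untreated, their sum was 22.4 to 25.4 CPM in WT, 33.4 to 38.7 CPM in LZK KO and 13.2 to 15.4 CPM in the double KO. In Control gRNA it was 11.2 to 15.3 CPM untreated and 20.1 to 23.4 CPM with vincristine. The progenitor and dividing-cell markers (5 of 5 at 1 CPM or more) summed to 734 to 775 CPM in untreated WT and 923 to 1951 CPM with vincristine, to 1310 to 1400 and 2431 to 2527 CPM in Control gRNA, and to 123 to 130 and 120 to 126 CPM in the double KO. This sum was also higher with vincristine in DLK KO (209 to 272 and 490 to 602 CPM) and LZK KO (512 to 669 and 974 to 1168 CPM). It was 957 to 1080 and 1656 to 1762 CPM in JUN gRNA, and 738 to 815 and 696 to 805 CPM in ATF2 gRNA. The summed stem cell markers, with POU5F1 and NANOG under 1 CPM, were 52.9 to 62.2 CPM in the double KO against 1.65 to 3.35 CPM in WT, and 30.7 to 40.2 CPM in ATF2 gRNA against 6.80 to 13.5 CPM in Control gRNA. The part of these shifts in the results below was not tested. In 1 library, WT vincristine replicate 4, 7.76% of genes lay more than 1 log2 unit from the rest of its group, above the next highest of experiment 1 (5.47%). In experiment 2 these shares ran from 3.95% to 22.0%, highest in ATF2 gRNA vincristine replicate 2. Results that rest on WT with vincristine are given without WT vincristine replicate 4 where it moves them by over 1.5 times or changes a call, as are those called in WT.

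The BH3 core of a multi-domain family member was searched here as a leucine, any 3 residues, a glycine and an aspartate. The core forms part of the helix and groove through which guardians and effectors meet. Its coding DNA is shown because guardians and effectors resemble each other there. This strict pattern was found once in 6 of the 7 multi-domain genes. It was not found in BCL2L2, which does not show that BCL2L2 lacks a BH3 core, since a variant of the pattern would be missed. Each line holds 42 bases of the coding strand, 5′ to 3′, from GENCODE 29 transcripts on GRCh38, with the 18 bases of the core in capitals. In all 6 a leucine codon opens the capitals and glycine and aspartate codons end them.
BCL2, exon 2, chr18:63318349-63318390, minus strand: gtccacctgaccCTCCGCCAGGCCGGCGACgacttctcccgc
BCL2L1, exon 2, chr20:31721922-31721963, minus strand: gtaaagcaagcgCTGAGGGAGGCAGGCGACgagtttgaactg
MCL1, exon 1, chr1:150578865-150578906, minus strand: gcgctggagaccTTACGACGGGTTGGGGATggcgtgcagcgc
BAX, exon 3, chr19:48955775-48955816, plus strand: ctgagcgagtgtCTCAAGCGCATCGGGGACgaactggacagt
BAK1, exon 4, chr6:33575387-33575428, minus strand: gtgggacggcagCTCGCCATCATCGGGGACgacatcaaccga
BOK, from exon 2 across an intron, chr2:241559679-241562364, plus strand: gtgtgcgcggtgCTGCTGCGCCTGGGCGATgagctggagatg

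The second family signature, asparagine, tryptophan, glycine and arginine in a row, lies in the BH1 region of the groove and was also found once in 6 of the 7, with BOK the gene without it. BOK is the family member that is reported to act with little restraint from the guardians. Reads were counted per gene, so isoforms that keep or lose the core, such as the long and short forms of BCL2L1 and MCL1, are summed in the values below.

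Per length, MCL1 and BCL2L1 were the most abundant of the 9 genes in both controls. In untreated WT, levels per kilobase of gene model (CPM per kb) were 31.0 ± 1.31 (SD, n = 4) for MCL1 and 19.6 ± 0.212 for BCL2L1. BOK followed at 6.06 ± 1.17, BCL2L2 at 4.56 ± 0.269 and APAF1 at 4.32 ± 0.115. BAX (2.34 ± 0.392), CASP9 (2.27 ± 0.143), BAK1 (1.73 ± 0.222) and BCL2 (1.00 ± 0.0443) were lowest. The library ranges of BCL2L2 and APAF1 overlapped, as did those of BAX and CASP9, and every other pair of neighbours in this order was separate. In untreated Control gRNA the order was MCL1 at 52.5 ± 0.480 (n = 5), BCL2L1 at 44.7 ± 3.24, BCL2L2 at 10.1 ± 0.462, BOK at 9.44 ± 0.764 and BAX at 8.08 ± 0.815. BAK1 at 4.68 ± 0.273, APAF1 at 4.02 ± 0.310, CASP9 at 3.94 ± 0.268 and BCL2 at 0.912 ± 0.0611 closed it. There the ranges of BCL2L2 and BOK, BOK and BAX, BAK1 and APAF1, and APAF1 and CASP9 overlapped. The experiments were normalised separately, so their levels were not compared by a test.

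With vincristine, 2 guardian transcripts fell and CASP9 rose in both controls, while BAX, BAK1 and APAF1 passed the test in neither. In WT, 3 of the 9 genes were called at an adjusted p under 0.05 (edgeR quasi-likelihood test, Benjamini-Hochberg adjustment over 18235 genes), against 30.2% of all genes tested. In Control gRNA, 4 of the 9 were called, against 35.3% of 20759 genes. The median log2 fold change of the 9 genes was 0.02 in WT and -0.03 in Control gRNA, beside -0.00 and 0.03 over all genes, so the 9 did not move one way. All log2 fold changes below are vincristine over untreated with their standard error, unless another contrast is named.

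BCL2L1 (chr20:31664452-31723989, minus strand) encodes BCL-XL, a main survival guardian of neurons. It read 65.3, 65.3, 65.2 and 63.9 CPM in the 4 untreated WT libraries and 55.5, 51.9, 57.7 and 39.1 CPM in the 4 with vincristine. Every treated library lay below every untreated one, and the lowest value is that of replicate 4. BCL2L1 fell by 0.34 ± 0.09 on the log2 scale, or by 21.2% (adjusted p = 0.00214). Without replicate 4 it fell by 0.24 (adjusted p = 0.0119). In Control gRNA it read 141, 167, 142, 144 and 147 CPM untreated and 108, 116, 109, 110 and 101 CPM with vincristine, again with no overlap. There it fell by 0.45 ± 0.05, or by 26.6% (adjusted p = 2.57e-11). The antisense gene ABALON covers 43.0% of the exon bases of BCL2L1, but was counted at no more than 2.12 CPM in experiment 1 and 0.486 CPM in experiment 2; the strand setting of the counting is not given in the sources used here.

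MCL1 (chr1:150574551-150579738, minus strand) encodes a short-lived guardian. Its level was 143, 132, 137 and 130 CPM in untreated WT and 110, 118, 117 and 117 CPM with vincristine. All treated libraries lay below the untreated ones, and MCL1 fell by 0.23 ± 0.05, or by 14.8% (adjusted p = 0.000847; fell by 0.24 without replicate 4, adjusted p = 0.00096). In Control gRNA the 5 untreated libraries were within 227 to 233 CPM and the 5 treated within 203 to 212 CPM. The fall of 10.2% there (log2 fold change -0.16 ± 0.03, adjusted p = 0.00027) is small but larger than the spread in either group.

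The other guardians did not pass the test in either control, BCL2 narrowly so in Control gRNA. BCL2 (chr18:63123346-63320128, minus strand), the founding family member, had 12.4, 11.4, 11.9 and 11.3 CPM in untreated WT and 13.8, 12.0, 13.5 and 12.1 CPM with vincristine, a log2 fold change of 0.12 ± 0.09 (95% interval -0.06 to 0.31; 0.15 without replicate 4). In Control gRNA it had 10.3, 9.71, 11.1, 11.5 and 11.0 CPM untreated and 13.5, 12.1, 11.6, 12.7 and 15.7 CPM treated, a log2 fold change of 0.29 ± 0.12 (adjusted p = 0.0646). Those treated libraries all lay above the untreated ones, and without Control gRNA vincristine replicate 3 the value was 0.33 and passed the test (adjusted p = 0.0485). It also passed with no filter on low counts (adjusted p = 0.0349), with a filter at a mean of 1 CPM (0.0371) and in a fit of only these groups (0.0158). BCL2L2 (chr14:23298790-23311759, plus strand), which encodes BCL-W, had log2 fold changes of 0.15 ± 0.10 in WT (0.22 without replicate 4, adjusted p = 0.0948) and -0.03 ± 0.06 in Control gRNA. The readthrough gene BCL2L2-PABPN1 shares 19.4% of the exon bases of BCL2L2 on the same strand, so reads there may be counted for either or neither.

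**Figure D1:**
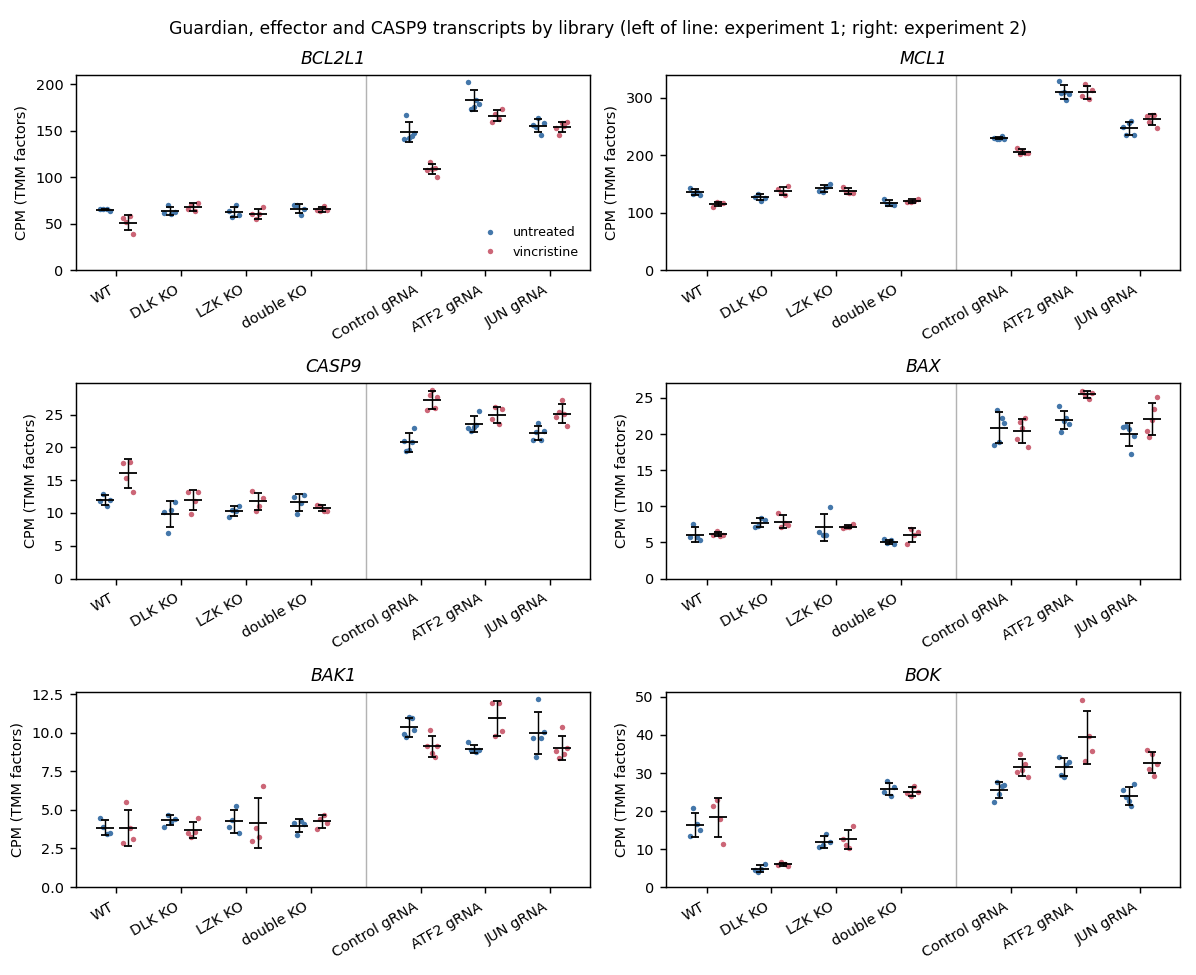
CPM of BCL2L1, MCL1, CASP9, BAX, BAK1 and BOK in every library (points; blue untreated, red vincristine), with group mean and SD (bars), for the 4 lines of experiment 1 and the 3 of experiment 2, separated by a grey line. BCL2L1 and MCL1 lie lower, and CASP9 higher, with vincristine in WT and Control gRNA, whereas the BAX groups overlap in both.

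The pore-forming effectors showed no called change in WT. BAX (chr19:48954815-48961798, plus strand) had 5.74, 7.55, 5.69 and 5.27 CPM in untreated WT and 5.98, 6.56, 5.91 and 6.04 CPM with vincristine. Its log2 fold change was 0.02 ± 0.14, with a 95% interval of -0.26 to 0.30, and in the deeper Control gRNA libraries -0.03 ± 0.08, with an interval of -0.18 to 0.12. BAK1 (chr6:33572547-33580293, minus strand), the effector that resides at the mitochondrial membrane, gave 0.01 ± 0.20 in WT (interval -0.37 to 0.40; 0.09 without replicate 4). With 28 to 61 counts per WT library with vincristine, changes of BAK1 within that interval were not detectable at this depth. In Control gRNA, BAK1 had 9.89, 9.71, 11.0, 11.0 and 10.2 CPM untreated and 9.11, 10.2, 8.71, 8.45 and 9.11 CPM treated, a log2 fold change of -0.18 ± 0.10 (adjusted p = 0.143).

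BOK (chr2:241551424-241574138, plus strand) rose in all 3 lines of experiment 2. In Control gRNA it had 22.5, 27.6, 24.6, 26.5 and 26.9 CPM untreated and 30.2, 35.0, 30.8, 32.3 and 29.0 CPM with vincristine. These groups did not overlap, and BOK rose by 0.30 ± 0.08 on the log2 scale, or 1.23-fold (adjusted p = 0.00279). In untreated WT it had 13.5, 20.8, 16.6 and 14.9 CPM and with vincristine 21.3, 22.9, 17.9 and 11.2 CPM, where the lowest treated value is again replicate 4. The WT log2 fold change was 0.16 ± 0.15 (adjusted p = 0.445). Without replicate 4 it was 0.33 (adjusted p = 0.0359), which brought the WT count to 4 of 9.

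CASP9 (chr1:15490832-15526534, minus strand) encodes the initiator caspase of the apoptosome. It had 11.9, 12.9, 11.0 and 12.0 CPM in untreated WT and 17.6, 15.4, 17.8 and 13.3 CPM with vincristine. All treated libraries lay above the untreated ones, and CASP9 rose by 0.43 ± 0.12, or 1.35-fold (adjusted p = 0.00566; 0.51 and adjusted p = 0.00095 without replicate 4). In Control gRNA the libraries read 21.0, 19.4, 19.5, 20.8 and 22.9 CPM untreated and 25.6, 27.9, 28.7, 26.0 and 27.7 CPM treated. CASP9 rose there by 0.39 ± 0.06, or 1.31-fold (adjusted p = 2.22e-06), with no overlap. APAF1 (chr12:98645141-98735433, plus strand), the scaffold of the apoptosome, had log2 fold changes of -0.01 ± 0.07 in WT and -0.10 ± 0.07 in Control gRNA, with 95% intervals of -0.16 to 0.13 and -0.23 to 0.04.

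**Figure D2:**
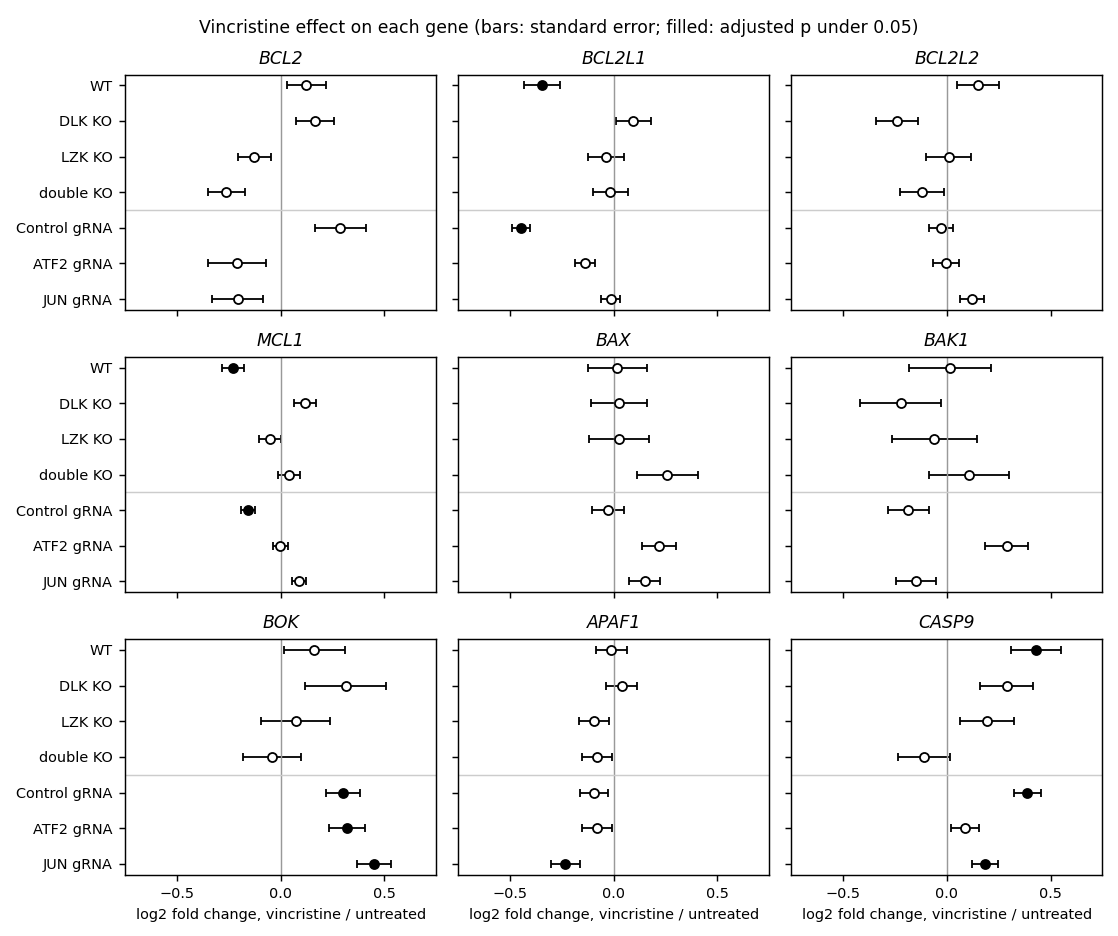
Log2 fold change of vincristine over untreated (x axis) for each of the 9 genes in each of the 7 lines (rows; the grey line separates the experiments), with the standard error as a bar and filled points where the adjusted p is under 0.05. BCL2L1 and MCL1 have filled points only in WT and Control gRNA, both below 0, and BOK has filled points in the 3 lines of experiment 2.

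BCL2L1 and MCL1 passed the test in none of the 3 knockout lines, and for DLK KO the difference from WT itself passed the test. With vincristine, 0 of the 9 genes were called in DLK KO (6.53% of all genes), in LZK KO (3.88%) and in the double KO (0.0658%), by edgeR and also by DESeq2. At an unadjusted p under 0.05 there were 3, 0 and 1 of 9. For the difference in the vincristine effect, DLK KO minus WT, 3 of 9 were called, against 19.4% of all genes. LZK KO minus WT gave 0 of 9 (12.4% of all genes; 3 at an unadjusted p under 0.05, and 1, MCL1, by DESeq2). Double KO minus WT gave 3 of 9 (19.4% of all genes), and double KO minus DLK KO gave 0 of 9 (1.14%; 2 at an unadjusted p under 0.05, and 0 by DESeq2). The 3 differences from WT share the WT libraries.

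In DLK KO, BCL2L1 had 61.1, 69.6, 60.5 and 62.7 CPM untreated and 65.2, 70.2, 63.6 and 72.0 CPM with vincristine, so that the groups overlapped. Its log2 fold change with vincristine, not called there, lay above the fall in WT by 0.44 ± 0.12 (adjusted p = 0.00957). Without WT vincristine replicate 4 the difference was 0.33 (adjusted p = 0.0177). MCL1 had 127, 133, 121 and 126 CPM untreated and 140, 133, 130 and 146 CPM treated there. Its effect differed from WT by 0.35 ± 0.07 (adjusted p = 0.000922; 0.36 and adjusted p = 0.000774 without that library). BCL2L2 was called with a difference of -0.39 ± 0.14, but at an adjusted p of 0.049. That call ended without any 1 of 13 of the 16 libraries, that is all but WT vincristine replicate 4, DLK KO untreated replicate 3 and DLK KO vincristine replicate 4, at values of -0.42 to -0.36. It also ended with RLE factors (adjusted p = 0.0527), with no filter (0.144) and with a replicate block (0.0658). CASP9 in DLK KO had a log2 fold change of 0.29 ± 0.13 (adjusted p = 0.162), and its difference from WT was -0.14 ± 0.17 (interval -0.48 to 0.20; -0.22 without WT vincristine replicate 4, adjusted p = 0.417).

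In LZK KO, BCL2L1 had 63.0, 57.1, 69.9 and 58.7 CPM untreated and 60.0, 54.4, 60.5 and 67.8 CPM treated, and MCL1 had 138, 136, 145 and 150 CPM untreated and 145, 137, 134 and 134 CPM treated. Both pairs of groups overlapped. The differences from the WT effect were 0.31 ± 0.12 for BCL2L1 (adjusted p = 0.101, interval 0.06 to 0.55) and 0.18 ± 0.07 for MCL1 (adjusted p = 0.112, interval 0.03 to 0.33). Without LZK KO untreated replicate 3 the difference for BCL2L1 was 0.38 and passed the test (adjusted p = 0.0427). Without WT vincristine replicate 4 it was 0.20 (adjusted p = 0.193).

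In the double KO, the MCL1 libraries read 124, 115, 115 and 114 CPM untreated and 118, 118, 121 and 124 CPM treated, which overlap. The MCL1 effect differed from WT by 0.27 ± 0.07 (adjusted p = 0.00867), a call that ended only with no filter on low counts (adjusted p = 0.146). CASP9 had 12.4, 9.87, 11.6 and 12.8 CPM untreated and 11.3, 11.1, 10.3 and 10.3 CPM treated. The difference from the WT effect was -0.54 ± 0.17 (adjusted p = 0.024; -0.62 and adjusted p = 0.00563 without WT vincristine replicate 4). That call ended without WT untreated replicate 3 (-0.50), WT vincristine replicate 1 (-0.50), WT vincristine replicate 3 (-0.48) or double KO untreated replicate 4 (-0.49). BCL2 differed by -0.38 ± 0.13 (adjusted p = 0.0344). That call ended without any 1 of 9 of the 16 libraries, at values of -0.39 to -0.33, and these were WT untreated replicates 2, 3 and 4, WT vincristine replicates 1 and 3, double KO untreated replicates 3 and 4 and double KO vincristine replicates 2 and 4. The BCL2 call also ended with DESeq2 (adjusted p = 0.0521), no filter (0.16) and a fit of only these groups (0.0622). BCL2L1 differed by 0.33 ± 0.12 and missed the threshold (adjusted p = 0.0535), but passed with RLE factors (0.0489) and with DESeq2 (0.0412), so that the 3 genes called by DESeq2 were BCL2L1, MCL1 and CASP9. Its difference passed without WT vincristine replicate 1 (0.36), WT vincristine replicate 3 (0.40) or double KO untreated replicate 1 (0.36), and was 0.22 without WT vincristine replicate 4 (adjusted p = 0.104).

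Under knockdown of ATF2 or JUN, BCL2L1 and MCL1 gave no called change with vincristine, and all 4 differences from the Control gRNA effect passed the test. With vincristine, 1 of 9 genes was called in ATF2 gRNA (6.1% of all genes) and 3 of 9 in JUN gRNA (15.9%). For the difference in effect, 4 of 9 were called for ATF2 gRNA minus Control gRNA (20.6% of all genes) and 3 of 9 for JUN gRNA minus Control gRNA (15.8%). Between ATF2 gRNA and JUN gRNA 0 of 9 were called (2.83% of all genes; 1 at an unadjusted p under 0.05, BAK1, which DESeq2 also called). Both differences from Control gRNA share its libraries.

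BCL2L1 in ATF2 gRNA had 202, 173, 176, 183 and 179 CPM untreated and 160, 168, 163 and 174 CPM with vincristine, a log2 fold change of -0.14 ± 0.05 (adjusted p = 0.0786). In JUN gRNA it had 156, 153, 164, 146 and 158 CPM untreated and 153, 145, 158, 155 and 159 CPM treated, a log2 fold change of -0.02 ± 0.04. Both pairs of groups overlapped. The log2 fold change lay above the fall in Control gRNA by 0.31 ± 0.07 for ATF2 gRNA libraries (adjusted p = 0.000363) and by 0.43 ± 0.06 for JUN gRNA libraries (adjusted p = 1.22e-06). ATF2 gRNA minus JUN gRNA was -0.12 ± 0.07 for BCL2L1 (interval -0.25 to 0.01).

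MCL1 had 329, 308, 311, 296 and 306 CPM in untreated ATF2 gRNA and 302, 324, 298 and 314 CPM with vincristine. In JUN gRNA it had 249, 235, 255, 260 and 235 CPM untreated and 268, 257, 269, 270 and 247 CPM treated. Neither comparison was called, and the treated JUN gRNA mean was the higher one (log2 fold change 0.09 ± 0.03, adjusted p = 0.0772; it passed without JUN gRNA untreated replicate 4 or JUN gRNA vincristine replicate 5, at 0.11 each, with a filter at a mean of 1 CPM and with DESeq2). The MCL1 log2 fold change lay above the fall in Control gRNA by 0.15 ± 0.05 in ATF2 gRNA (adjusted p = 0.0235) and by 0.24 ± 0.05 in JUN gRNA (adjusted p = 0.000221). The ATF2 gRNA value lost its call without ATF2 gRNA untreated replicate 4 (0.14), ATF2 gRNA vincristine replicate 3 (0.12) or ATF2 gRNA vincristine replicate 5 (0.14), and with no filter on low counts (adjusted p = 0.141).

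BCL2 had log2 fold changes of -0.21 ± 0.14 with the ATF2 guide and -0.21 ± 0.12 with the JUN guide, against 0.29 ± 0.12 in Control gRNA. The JUN gRNA change passed without JUN gRNA vincristine replicate 2 (-0.34, adjusted p = 0.0496). The difference for JUN gRNA was -0.49 ± 0.17 (adjusted p = 0.0441), and that for ATF2 gRNA was -0.50 ± 0.19 (adjusted p = 0.0512). Leaving out 1 library moved both across the threshold in several cases. The JUN gRNA call ended without Control gRNA untreated replicate 1, 2 or 5, Control gRNA vincristine replicate 1, 4 or 5, JUN gRNA untreated replicate 2, 4 or 5, or JUN gRNA vincristine replicate 1, 3 or 4, at values of -0.51 to -0.42. The ATF2 gRNA difference passed without Control gRNA untreated replicate 4, Control gRNA vincristine replicate 2 or 3, ATF2 gRNA untreated replicate 1 or 4, or ATF2 gRNA vincristine replicate 3, at values of -0.63 to -0.53, and with no filter (adjusted p = 0.0279), the 1 CPM filter (0.0399) or a replicate block (0.0353).

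BAK1 was the effector whose response differed between guides. In ATF2 gRNA it had 9.37, 8.88, 8.86, 8.77 and 8.87 CPM untreated and 11.9, 9.76, 11.9 and 10.1 CPM with vincristine. Every treated library lay above every untreated one, although the change itself was not called (log2 fold change 0.29 ± 0.10, adjusted p = 0.0895); it passed with a filter at a mean of 1 CPM (0.0494) and with DESeq2 (0.0377). The difference from the Control gRNA effect was 0.47 ± 0.14 (adjusted p = 0.0119). Against the JUN gRNA effect it was 0.44 ± 0.14 (adjusted p = 0.0888), and passed when JUN gRNA untreated replicate 2 (0.49) or ATF2 gRNA vincristine replicate 3 (0.50) was left out. BAX had a log2 fold change of 0.22 ± 0.08 with the ATF2 guide (adjusted p = 0.106) and 0.15 ± 0.08 with the JUN guide (adjusted p = 0.214). BAX libraries in ATF2 gRNA read 23.9, 20.3, 21.8, 22.3 and 21.4 CPM untreated and 26.0, 25.4, 24.9 and 25.7 CPM treated, without overlap, and the difference from Control gRNA was 0.25 ± 0.11 (adjusted p = 0.119).

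BOK rose with each guide. In ATF2 gRNA it had 34.3, 29.5, 28.9, 32.2 and 33.0 CPM untreated and 49.1, 33.2, 39.6 and 35.7 CPM treated, a rise of 0.32 ± 0.09 with overlapping groups (adjusted p = 0.0149). Without ATF2 gRNA vincristine replicate 2, the library at 49.1 CPM, it was 0.20 (adjusted p = 0.181), and in a fit of only these groups the adjusted p was 0.0523. In JUN gRNA it had 25.5, 23.6, 22.5, 21.3 and 27.1 CPM untreated and 36.0, 31.1, 34.9, 29.3 and 32.4 CPM treated, a rise of 0.45 ± 0.08 without overlap (adjusted p = 4.16e-05). Set against the Control gRNA effect, the BOK difference was 0.02 ± 0.12 for the ATF2 guide and 0.15 ± 0.11 for the JUN guide, neither called.

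For CASP9, ATF2 gRNA libraries read 23.0, 22.4, 23.1, 23.4 and 25.6 CPM untreated and 24.2, 26.1, 23.6 and 25.9 CPM with vincristine, which overlap. The log2 fold change was 0.09 ± 0.07, and the effect was lower than in Control gRNA at a log2 difference of -0.30 ± 0.09 (adjusted p = 0.0148). In JUN gRNA the libraries read 21.2, 22.3, 23.7, 21.1 and 22.4 CPM untreated and 24.6, 25.4, 27.2, 25.2 and 23.2 CPM treated. The rise of 0.18 ± 0.06 passed narrowly (adjusted p = 0.0403), its groups overlapped, and the difference from Control gRNA did not pass (-0.21 ± 0.09, adjusted p = 0.123). The JUN gRNA call was lost without any 1 of 8 of the 10 libraries, at values of 0.15 to 0.19, all but JUN gRNA untreated replicate 3 and JUN gRNA vincristine replicate 5, and also with no filter (adjusted p = 0.164) and in a fit of only these groups (0.0525). APAF1 fell in JUN gRNA by 0.23 ± 0.07 (adjusted p = 0.0118), from 35.7, 34.7, 34.0, 38.4 and 34.0 CPM to 30.0, 34.1, 29.1, 27.3 and 30.0 CPM. These groups overlapped, and the APAF1 difference from the Control gRNA effect was not called. Without JUN gRNA vincristine replicate 4 the log2 fold change of APAF1 in JUN gRNA was -0.20 and missed the threshold (adjusted p = 0.0504).

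Summed per length, the 4 guardians were dominated by BCL2L1 and MCL1, which together made up 90.1% of the guardian sum in untreated WT and 89.8% in untreated Control gRNA. The guardian sum was 56.2 ± 1.61 CPM per kb in untreated WT and 48.0 ± 2.81 with vincristine (SD, n = 4), and the library ranges, 54.7 to 58.2 and 44.0 to 50.5, were separate. In Control gRNA it was 108 ± 2.97 untreated and 91.0 ± 1.39 treated (n = 5). It was 137 ± 6.13 and 132 ± 5.15 with the ATF2 guide, 114 ± 2.95 and 118 ± 2.38 with the JUN guide, and 51.4 ± 2.48 and 51.4 ± 1.04 in the double KO. The sum over the effectors was 10.1 in untreated WT and 10.9 with vincristine, and 22.2 and 23.6 in Control gRNA. The ratio of guardian to effector transcripts was accordingly 4.89 ± 0.273 in untreated Control gRNA and 3.86 ± 0.210 with vincristine, with library ranges of 4.65 to 5.34 and 3.57 to 4.06. In WT the corresponding ratios, 5.63 ± 0.814 and 4.55 ± 0.825, had overlapping ranges. Without replicate 4 the treated WT guardian sum was 49.3 ± 1.02 and the ratio 4.21 ± 0.567 (n = 3). The ratio was also lower with vincristine under both guides. With the ATF2 guide it was 5.67 ± 0.187 untreated and 4.54 ± 0.618 treated, with separate ranges of 5.45 to 5.89 and 3.77 to 5.13. With the JUN guide it was 5.45 ± 0.370 and 4.80 ± 0.251, with overlapping ranges. The effector sums were 24.2 and 29.3 with the ATF2 guide and 21.1 and 24.7 with the JUN guide. Among untreated knockout lines the ratio was 8.06 ± 0.841 in DLK KO and 3.87 ± 0.170 in the double KO, lines in which BOK, the largest part of the effector sum in WT, was at its lowest and highest. With vincristine the ratio was 8.25 ± 0.490 in DLK KO and 3.80 ± 0.115 in the double KO. In LZK KO it was 6.57 ± 0.452 untreated and 6.28 ± 0.865 treated. The ranges of treated and untreated libraries overlapped in each knockout line. These sums are descriptions without a test.

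**Figure D3:**
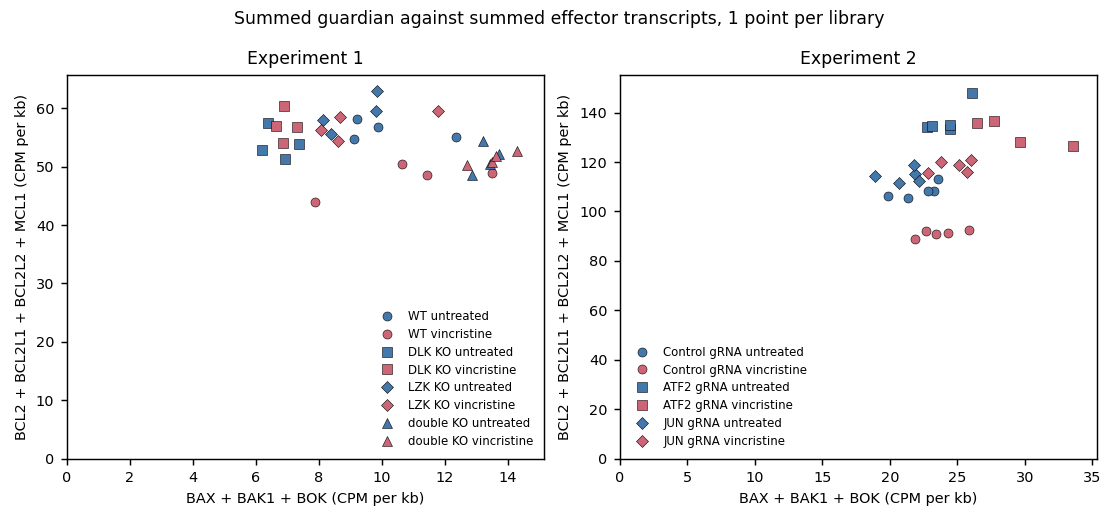
Summed guardian transcripts (BCL2, BCL2L1, BCL2L2 and MCL1; y axis, CPM per kb) against summed effector transcripts (BAX, BAK1 and BOK; x axis, CPM per kb), 1 point per library, with the line as shape and the treatment as colour (blue untreated, red vincristine). Treated WT and Control gRNA libraries (circles) lie below their untreated counterparts, while the treated and untreated double KO libraries (triangles) intermingle.

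Between untreated lines and their control, 1 to 5 of the 9 genes were called, beside 11.2% to 45.7% of all genes. Against WT, 1 of 9 was called in DLK KO (34.5% of all genes), 4 of 9 in LZK KO (33.9%) and 5 of 9 in the double KO (45.7%). Against Control gRNA, 5 of 9 were called in ATF2 gRNA (39.9% of all genes) and 1 of 9 in JUN gRNA (11.2%). The comparisons with WT share its 4 untreated libraries, and those with Control gRNA its 5.

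BCL2 was 4.16-fold higher in LZK KO than in WT, the largest difference from its control seen for any of the 9 genes. Untreated LZK KO libraries read 46.4, 47.4, 53.1 and 49.1 CPM, against the 11.3 to 12.4 CPM of WT, and treated ones 43.0, 42.1, 48.2 and 46.2 CPM. The log2 fold change was 2.06 ± 0.09 (adjusted p = 1.5e-20). The 11 other tested genes within 1 Mb of BCL2 had a median of -0.07 in that comparison, and 1 of them was called. In the double KO, BCL2 read 15.0, 14.7, 16.7 and 17.1 CPM untreated, higher than WT by 0.43 ± 0.09 (adjusted p = 0.00018). The same 11 neighbours had there a median of -1.17, and 10 of them were called lower. In DLK KO, BCL2 differed from WT by 0.18 ± 0.09 (adjusted p = 0.146).

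With the ATF2 guide BCL2 moved the other way. It read 4.17, 5.34, 6.19, 4.69 and 5.85 CPM in untreated ATF2 gRNA against 9.71 to 11.5 CPM in Control gRNA. These libraries did not overlap, and the log2 fold change was -1.03 ± 0.13, or 0.489 of the control level (adjusted p = 3.54e-09). Its 11 neighbours had a median of 0.26, with 4 called, all higher. They ran from -1.26 to 0.92, so BCL2 lay within their range. In JUN gRNA, BCL2 differed by 0.14 ± 0.12 (adjusted p = 0.613).

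The abundant guardians were higher with the ATF2 guide. Untreated MCL1, at 296 to 329 CPM against 227 to 233 CPM in Control gRNA, was higher by 0.43 ± 0.03, or 1.35-fold (adjusted p = 1.14e-14). BCL2L1, at 173 to 202 CPM against 141 to 167 CPM, was higher by 0.30 ± 0.05, or 1.23-fold (adjusted p = 2.88e-07). Neither pair of groups overlapped, and the neighbours of these genes within 1 Mb had medians of -0.03 and -0.15. In JUN gRNA, MCL1 was higher by 0.11 ± 0.03 (adjusted p = 0.0382). That call ended without any 1 of 8 of the 10 libraries, all but JUN gRNA untreated replicates 2 and 5, at values of 0.09 to 0.11, and with no filter (adjusted p = 0.0686) or a fit of only these groups (0.0607). BCL2L1 in untreated JUN gRNA differed by 0.07 ± 0.05 (adjusted p = 0.426). In the knockout lines BCL2L1 stayed within intervals of -0.23 to 0.19 around WT, and MCL1 was called lower in the double KO alone (-0.21 ± 0.05, adjusted p = 0.00104), a call lost with no filter on low counts (adjusted p = 0.0617). BCL2L2 was lower in LZK KO (-0.35 ± 0.10, adjusted p = 0.0083, with overlapping libraries) and in the double KO (-0.45 ± 0.10, adjusted p = 0.000429).

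**Figure D4:**
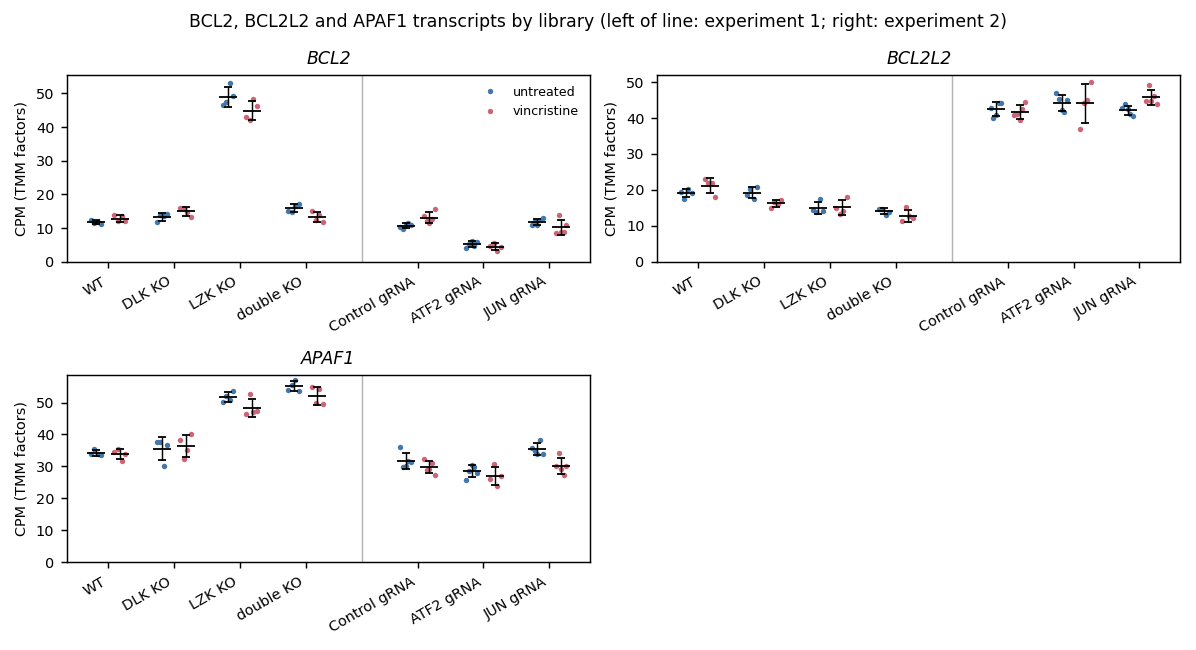
CPM of BCL2, BCL2L2 and APAF1 in every library (points; blue untreated, red vincristine) with group mean and SD (bars); the grey line separates the experiments. All LZK KO libraries lie above 40 CPM for BCL2 and the ATF2 gRNA libraries lie lowest, and APAF1 is higher in LZK KO and double KO than in WT.

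Among the effectors BOK differed most between lines. DLK KO libraries read 4.59, 3.89, 4.77 and 6.13 CPM untreated, against 13.5 to 20.8 CPM in WT, a log2 fold change of -1.77 ± 0.17, or 0.294 of the WT level (adjusted p = 1.9e-10). BOK lies at the end of chromosome 2, and of 23 tested genes within 1 Mb 20 were called lower in DLK KO, with a median of -1.07, so the fall was shared by most of its neighbours. In the double KO, BOK read 25.1, 27.9, 24.1 and 26.3 CPM, higher than WT by 0.65 ± 0.14 (adjusted p = 0.000272), beside a neighbour median of -0.03. In LZK KO it was lower by a log2 fold change of -0.47 ± 0.16 (adjusted p = 0.0179, libraries overlapping). That call ended without WT untreated replicate 2 (-0.37) or LZK KO untreated replicate 1 (-0.41). In ATF2 gRNA it was higher by 0.30 ± 0.08 (adjusted p = 0.00206). BAX and BAK1 were called in no untreated line. BAX in DLK KO, at 7.08, 7.28, 8.40 and 8.07 CPM, stood at the threshold (0.35 ± 0.14, adjusted p = 0.05) and passed when DLK KO untreated replicate 1 (0.40) or WT untreated replicate 2 (0.46) was left out, with RLE factors (adjusted p = 0.0481), the 1 CPM filter (0.0442) and a fit of only these groups (0.0483).

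Of the apoptosome genes, APAF1 was higher in both lines labelled as LZK knockouts. It read 50.3, 52.1, 50.9 and 53.6 CPM in untreated LZK KO and 54.1, 55.6, 57.0 and 53.6 CPM in the double KO, against 33.5 to 35.5 CPM in WT. The rises were 0.60 ± 0.07 (1.51-fold, adjusted p = 2.34e-08) and 0.69 ± 0.07 (1.61-fold, adjusted p = 3.44e-10), beside medians of 0.38 and -0.05 over the 9 neighbours within 1 Mb. The gene ANKS1B shares 9.48% of the exon bases of APAF1 on the opposite strand. The strand setting of the counting is not given, and whether reads of ANKS1B enter these values was not tested. In DLK KO, at 37.7, 37.7, 30.1 and 36.7 CPM, APAF1 differed from WT by 0.05 ± 0.07 (adjusted p = 0.613). In ATF2 gRNA it was at -0.16 ± 0.07 against Control gRNA (adjusted p = 0.0659), and passed without Control gRNA untreated replicate 2 or ATF2 gRNA untreated replicate 3 (-0.18 each). CASP9 was called in 1 untreated comparison, ATF2 gRNA (0.18 ± 0.06, adjusted p = 0.0224), a call that ended without Control gRNA untreated replicate 2 (0.16), Control gRNA untreated replicate 3 (0.16) or ATF2 gRNA untreated replicate 5 (0.15). In DLK KO, CASP9 was at -0.28 ± 0.13 (adjusted p = 0.0852), and passed without DLK KO untreated replicate 4 (-0.36).

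**Figure D5:**
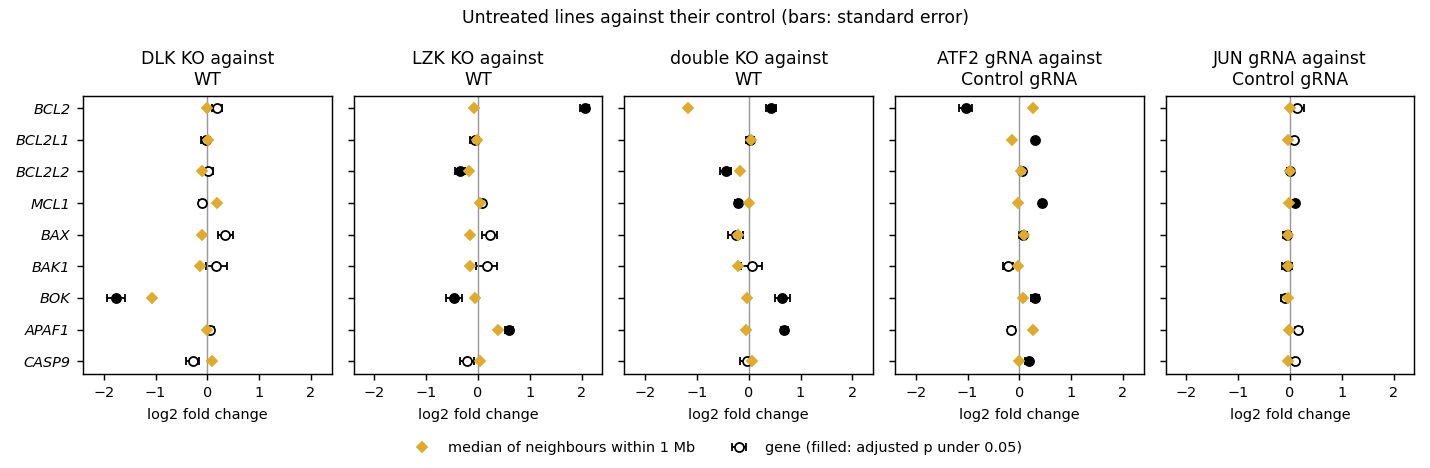
Log2 fold change of each gene in the untreated lines against their control (circles, filled where the adjusted p is under 0.05; bars, standard error), with the median over tested genes within 1 Mb (diamonds). BCL2 stands far from the median of its neighbours in LZK KO, the double KO and ATF2 gRNA, whereas BOK in DLK KO lies on the same side of 0 as that of its neighbours.

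The other genes of the pathway were counted in the same fits, and no test compared the lists. Of 8 BH3-only genes, whose products occupy the guardians, 6 were called higher and 1 lower with vincristine in WT (30.2% of all genes called), and 5 higher and 1 lower in Control gRNA (35.3%). The largest rises were in HRK (2.98 ± 0.12 in WT and 2.18 ± 0.05 in Control gRNA) and BBC3, which encodes PUMA (2.58 ± 0.16 and 2.43 ± 0.09). The gene that fell in both was BID (-0.57 and -0.55), named after its values were seen. The BH3-only genes called higher numbered 5 of 8 in DLK KO (6.53% of all genes called), 3 in LZK KO (3.88%), 0 in the double KO (0.0658%), 3 with the ATF2 guide (6.1%) and 4 with the JUN guide (15.9%), with 0 called lower. Of the 6 other multi-domain relatives, 2 were tested in experiment 1 and 4 in experiment 2, and BCL2L13 was the gene called, higher in WT (0.44 ± 0.07), Control gRNA (0.33 ± 0.04) and JUN gRNA (0.18 ± 0.04). Of 13 caspases and factors beside the apoptosome, 10 and 11 were tested. In either direction 4 of 10 were called in WT and 8 of 11 in Control gRNA, beside the 30.2% and 35.3% of all genes. The largest fall in WT was in ENDOG, a mitochondrial nuclease (-0.86 ± 0.13). These lists were drawn up with results of these data known.

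An upstream stretch of BCL2L1, the guardian with the largest fall, is shown for the regulatory letters it does and does not hold. Of the 9 genes 7 have an entry in the RefSeq promoter table used (GRCh38.p14), and MCL1 and BCL2L2 do not. The AP-1 motif TGANTCA was in 0 of the entries of these genes, beside 7.71% of 35116 human promoter windows of 300 bases searched on both strands. The full cyclic AMP response element TGACGTCA (1.85% of windows) and the composite element TGATGNAA (3.62%) were in 0 of them as well. The 224 bases below lie upstream of the annotated exons of BCL2L1 (chr20:31723990-31724213, minus strand, 5′ to 3′), with the half-site TGACG in capitals, a motif searched after the data were seen and held on either strand by 18.9% of windows of this length. Over whole windows of 300 bases TGACG was in 5 of the 9 entries of these genes (BCL2, 1 of 2 for BCL2L1, BAX and both for CASP9), beside 24.6% of all promoters. A match is a string of letters and not evidence of binding, and its absence says only that these letters are not in this window.
BCL2L1: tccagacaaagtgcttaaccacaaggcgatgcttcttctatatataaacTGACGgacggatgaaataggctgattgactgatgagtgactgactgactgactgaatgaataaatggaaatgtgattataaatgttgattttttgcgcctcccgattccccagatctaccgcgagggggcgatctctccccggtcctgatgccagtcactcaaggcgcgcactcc

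The genes whose log2 CPM followed each of the 9 most closely were taken as those with the highest lower value of Pearson's r over the 32 libraries of experiment 1 and the 29 of experiment 2, among 12337 genes. These libraries share groups and line differences, so the values describe likeness only. For BCL2L1 the closest was PPP1R13B (r = 0.91 and 0.92). For MCL1 it was POU3F1 (0.80 and 0.92), for BCL2 GLCCI1 (0.91 and 0.92) and for BOK DGKD (0.83 and 0.79), a gene of the same chromosome. CASP9 was closest to STK40 (0.77 and 0.81) and TRIB3 (0.76 and 0.78). BAK1 had no close companion, its best being DDOST (0.40 and 0.42). Among the 9 genes, BCL2L1 and MCL1 had r = 0.29 in experiment 1 and 0.85 in experiment 2. Other pairs changed sign between the experiments, such as BCL2 and MCL1 (0.53 and -0.87) and BOK and APAF1 (0.48 and -0.78).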

How the data were processed

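Total RNA was purified for polyadenylated transcripts and made into stranded libraries, per the labels' protocols. The authors deposited raw counts per gene with the gene length, 1 table per experiment, on GRCh38, and the submitters' processing notes name cutadapt 3.4, STAR, featureCounts and Subread 2.0.1 without their settings. Counts on GENCODE 29 identifiers were matched to symbols (58320 of 58440). Each experiment was fitted separately in edgeR 4.0.16 (R 4.3.3): filtering by group, TMM factors, 1 mean per group, quasi-likelihood tests, Benjamini-Hochberg adjustment over all genes tested, threshold 0.05. The standard error is the absolute log2 fold change over the square root of F. CPM uses TMM-scaled library sizes, and CPM per kb divides by the deposited length. In total 19 comparisons were tested, and the code was tested on simulated data. Alternatives were DESeq2 1.42.0, RLE factors, omitting the low-count filter, setting it at 1 CPM on average, a replicate block, fits restricted to the groups at hand, and dropping each library in turn. Same-numbered libraries did not deviate together (median correlation 0.0025 and -0.0011; 6 of 112 and 0 of 70 pairs over 0.1). No libraries were near copies. The 9 genes and the lists were chosen with earlier results of these data known; all 9 are named throughout, with at most 3 called genes per list and comparison and the closest genes by correlation. Some results for single genes outside the 9 are not reported here.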

Additional observations from a re-analysis of the deposited data

Results flagged for a closer look

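In 9 of the 126 gene and group pairs 1 library stood apart from the rest of its group; chance alone puts about 1 in 20 groups there. For BCL2L1 these were WT untreated replicate 4 at 63.9 CPM (the others 65.2 to 65.3), double KO vincristine replicate 3 at 69.1 CPM (63.4 to 64.4) and Control gRNA untreated replicate 2 at 167 CPM (141 to 147). BCL2L2 was at 17.6 CPM in LZK KO untreated replicate 3 (13.8 to 14.3 in the others). MCL1 was at 110 CPM in WT vincristine replicate 1 (117 to 118) and at 124 CPM in double KO untreated replicate 1 (114 to 115). BAX was at 9.89 CPM in LZK KO untreated replicate 4 (6.01 to 6.48). BAK1 was at 9.37 CPM in ATF2 gRNA untreated replicate 1 (8.77 to 8.88), and APAF1 at 30.1 CPM in DLK KO untreated replicate 3 (36.7 to 37.7).

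Of 63 differences in the vincristine effect between lines, 13 passed the test of the difference itself (edgeR). For DLK KO minus WT these were BCL2L1 (0.44), MCL1 (0.35) and BCL2L2 (-0.39). For the double KO minus WT they were MCL1 (0.27), BCL2 (-0.38) and CASP9 (-0.54). For ATF2 gRNA minus Control gRNA they were BCL2L1 (0.31), MCL1 (0.15), BAK1 (0.47) and CASP9 (-0.30). For JUN gRNA minus Control gRNA they were BCL2L1 (0.43), MCL1 (0.24) and BCL2 (-0.49).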

How the results depend on the processing

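The 40 called results met 715 alternatives between them. In 637 the call and direction held, in 78 the adjusted p (edgeR, or DESeq2 where named) passed above 0.05, and in 0 the direction turned; the lost calls fall in 13 results. Of the 131 uncalled results, 40 of 2354 alternatives brought a call and 111, in 33 results, turned the sign of a value near 0. The cause was not tested. All 126 group levels moved by under 1 SD with RLE factors. Depth limits BAK1 and BAX in experiment 1, with as few as 27 and 43 counts per library, and BOK in DLK KO, with as few as 39.

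Of the counts out of 9, ATF2 gRNA with vincristine gave 2 (filter at 1 CPM), 2 (DESeq2) and 0 (only the groups compared), and 0 to 1 leaving out each library. JUN gRNA with vincristine gave 1 to 4 leaving out each library. LZK KO minus WT gave 1 with DESeq2 and 0 to 1 leaving out each library. Double KO minus WT gave 1 with no filter and 1 to 4 leaving out each library. Double KO minus DLK KO gave 1 with only the groups compared. ATF2 gRNA minus JUN gRNA gave 1 with DESeq2 and 0 to 1 leaving out each library. Untreated DLK KO gave 2 with RLE factors, with the 1 CPM filter and with only the groups compared, and 1 to 2 leaving out each library. Untreated JUN gRNA gave 0 with no filter and with only the groups compared, and 0 to 1 leaving out each library. With the replicate block, DLK KO minus WT gave 2 (BCL2L2 lost) and ATF2 gRNA minus Control gRNA gave 5 (BCL2 gained), and the block changed no other count of the 9; the numbers are not known to pair libraries.

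Over all genes, fitting only the groups compared moved the count called by vincristine from 5498 to 3529 in WT, from 1190 to 3207 in DLK KO, from 707 to 271 in LZK KO, from 12 to 1028 in the double KO and from 1267 to 768 in ATF2 gRNA. It moved the differences from 2262 to 1082 for LZK KO minus WT and from 207 to 3208 for double KO minus DLK KO, where no filter gave 536 and DESeq2 343. Leaving out 1 library brought DLK KO to 598 to 767 (DLK KO untreated replicates 1 and 2, vincristine replicates 1, 2 and 4), LZK KO to 452 (LZK KO untreated replicate 2), and double KO minus DLK KO to 114 to 135 (DLK KO vincristine replicates 1, 2 and 4, double KO untreated replicate 2 and vincristine replicate 4).

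Values near 0 that turned sign with another setting were, for BCL2L2 with vincristine in ATF2 gRNA (-0.0044), 0.0122 with RLE factors, 0.0134 with the 1 CPM filter, 0.0124 with DESeq2 and 0.0040 with only the groups compared. MCL1 there (-0.0027) gave 0.0144, 0.0154, 0.0146 and 0.0061 in that order, and 0.0064 with the replicate block. APAF1 in ATF2 gRNA minus Control gRNA (0.0155) gave -0.0037 with no filter. BCL2 in ATF2 gRNA minus JUN gRNA (-0.0042) gave 0.0109 with RLE factors, 0.0147 with no filter, 0.0118 with the 1 CPM filter, 0.0107 with DESeq2 and 0.0145 with only the groups compared. BCL2L2 in untreated JUN gRNA (-0.0097) gave 0.0033 with no filter.

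Leaving out each library in turn, these uncalled values crossed 0, given as lowest to highest. For the vincristine effect they were BAX -0.043 to 0.14 (WT), -0.059 to 0.064 (DLK KO), -0.040 to 0.22 (LZK KO), -0.064 to 0.019 (Control gRNA), BAK1 -0.21 to 0.13 (WT), -0.36 to 0.087 (LZK KO), APAF1 -0.029 to 0.027 (WT), -0.045 to 0.089 (DLK KO), BCL2L1 -0.096 to 0.037 (LZK KO), -0.069 to 0.012 (double KO), -0.038 to 0.0061 (JUN gRNA), BCL2L2 -0.086 to 0.12 (LZK KO), -0.067 to 0.079 (ATF2 gRNA), BOK -0.069 to 0.18 (LZK KO), MCL1 -0.019 to 0.023 (ATF2 gRNA). For the difference in effect they were BCL2 -0.020 to 0.088 (DLK KO minus WT), -0.11 to 0.13 (ATF2 gRNA minus JUN gRNA), BAX -0.12 to 0.061 (DLK KO minus WT), -0.11 to 0.21 (LZK KO minus WT), BOK -0.016 to 0.27 (DLK KO minus WT), -0.26 to 0.039 (LZK KO minus WT), -0.11 to 0.085 (ATF2 gRNA minus Control gRNA), APAF1 -0.033 to 0.095 (DLK KO minus WT), -0.065 to 0.058 (ATF2 gRNA minus Control gRNA), BAK1 -0.37 to 0.16 (LZK KO minus WT), -0.028 to 0.33 (double KO minus WT), -0.022 to 0.12 (JUN gRNA minus Control gRNA), BCL2L2 -0.056 to 0.090 (ATF2 gRNA minus Control gRNA). For the untreated lines against their control they were BCL2L1 -0.072 to 0.0027 (DLK KO), BCL2L2 -0.039 to 0.063 (DLK KO), -0.028 to 0.011 (JUN gRNA), CASP9 -0.10 to 0.045 (double KO), BAK1 -0.13 to 0.0051 (JUN gRNA).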
